A study of Mus musculus with 28 samples.

Results

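The comparison concerned colon organoids that carried the Trp53 LSL-R172H allele before Cre recombination had been induced. It used 14 of the 28 RNA-seq samples, namely those treated with ethanol (EtOH), the vehicle of 4-hydroxytamoxifen (4-HT). Of these, 8 samples came from 4 donor lines with the allele and 6 from 3 donor lines without it. The rule used the genotype and treatment labels and no measured value, although it was set with earlier results of these data known. The donor line was the unit of comparison, because the 2 cultures of a line, duplicates 1 and 2, shared a donor mouse.

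All lines were colon epithelium organoids from C57BL/6N mice, and all carried the VillinCreERT2 transgene, which restricts the inducible recombinase to intestinal epithelium, together with a homozygous floxed allele of Apc (APCflox/flox). The AC genotype had no further allele and was represented by line Col288. The methods of the study describe more than a single donor mouse for each genotype, but the labels name only Col288 for AC and were followed. The BAC genotype added BraffloxV600E/+ (lines Col291 and Col286), PAC added Trp53LSL-R172H/+ (Col290 and Col313), and BPAC added both (Col287 and Col312). Exposure to EtOH lasted 24 hours and RNA was taken after a further 3 days, so Apc, Braf and Trp53 were all unrecombined by design. The matching 4-HT samples of the same lines (3.5 µM) were used only to read the same genes after recombination. Donor ages were not used here.

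p53, the product of Trp53, is a transcription factor that is held at a low level in unstressed cells, mainly by the ubiquitin ligase MDM2. When it is stabilised it activates genes for cell cycle arrest, apoptosis and DNA repair. In an LSL allele a STOP cassette flanked by loxP sites lies upstream of the coding exons and blocks transcription of the mutant allele, so a heterozygous cell depends on its other, wild-type allele until Cre removes the cassette. The comparison thus addressed what a silent Trp53 allele went along with across the transcriptome while the mutant protein was not yet made.

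The following sequences place the allele. Trp53 lies on the plus strand at chr11:69580359-69591873 (GRCm38), and the arginine codon that is changed in the R172H allele lies in exon 5 of 11, at chr11:69588511-69588513. Codons were counted from the in-frame ATG 3 codons upstream of the annotated start, since of the 2 in-frame ATGs at the start only this one puts an arginine codon at the position that R172H names. The reference exon around it (GENCODE, chr11:69588496-69588528) is shown with that codon in capitals, and it is followed by the stretches upstream of Trp53, of Scn2b, the only gene called higher by edgeR on counts summed per line, and of Cdkn1a, the classical p53 target (RefSeq, GRCm38.p6, 5′ to 3′, exon bases left out). In these, capitals mark the p53 response element decamer, a motif that reads the same on both strands.
Trp53 R172H codon, chr11:69588496-69588528, plus strand: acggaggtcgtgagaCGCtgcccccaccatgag
Trp53 upstream, chr11:69580256-69580358, plus strand: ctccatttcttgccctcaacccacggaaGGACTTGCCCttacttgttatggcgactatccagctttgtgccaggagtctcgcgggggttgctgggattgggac
Scn2b upstream, chr9:45117626-45117781, plus strand: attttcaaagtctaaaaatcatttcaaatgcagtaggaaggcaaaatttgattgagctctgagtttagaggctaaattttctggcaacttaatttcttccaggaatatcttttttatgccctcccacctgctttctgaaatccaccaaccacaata
Cdkn1a upstream, chr17:29090729-29090975, plus strand: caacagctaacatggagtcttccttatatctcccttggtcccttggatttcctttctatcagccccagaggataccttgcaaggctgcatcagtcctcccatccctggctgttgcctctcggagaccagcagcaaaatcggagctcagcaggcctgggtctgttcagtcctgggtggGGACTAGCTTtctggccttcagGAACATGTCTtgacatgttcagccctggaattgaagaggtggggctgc

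The decamer occurred 1 time in the Trp53 stretch, 2 times in the Cdkn1a stretch and 0 times in the Scn2b stretch. Cdkn1a had 2 upstream stretches in the RefSeq table, of which 1 is shown, whereas Trp53 and Scn2b had 1 each. The count for Cdkn1a thus depends on which stretch is shown, and nothing was read from its difference to Scn2b. In the 250 bases upstream of a start the decamer occurred in 8.2% of 27025 genes in the RefSeq table. A match of letters says nothing about binding in these organoids.

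The total per EtOH sample was between 20577276 and 29135706 counts, and the ranges with and without the allele overlapped. The colon epithelium markers Epcam, Cdh1, Krt8, Krt19 and Cdx2 were present in all lines, and the summed level of the 12 identity markers was 25490 to 27390 CPM (counts scaled by library size after TMM normalization) without and 24170 to 29140 CPM with the allele. Of 18 fibroblast, immune and vessel markers only 5 were among the 13519 genes (Pdgfrb, Vim, Cd3e, Cd68 and Pecam1), at a summed 11.5 to 13.99 CPM without and 10.08 to 16.7 CPM with the allele. Col1a1, Dcn and Ptprc were not listed. Xist was at 70.6, 71.0 and 81.4 CPM in Col286, Col313 and Col312 and at most 0.211 CPM in the other 4 lines, so both sexes were present with and without the allele. The Y-linked gene Ddx3y was at 27.1, 28.8 and 35.2 CPM in Col288, Col291 and Col290 but at 5.97 CPM in Col287. In the 4-HT samples of PAC duplicate 1, Col290 held 834 Xist and 456 Ddx3y counts and Col313 held 636 and 374, whereas their EtOH samples were not mixed in this way, and the main 4-HT values are therefore also given without these 2 samples, a choice made after the data were seen. In bulk organoids, fewer cells of a type and less RNA per cell cannot be told apart.

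The silent allele was visible in Trp53 itself. With EtOH, Trp53 stood at 105 CPM in Col288, 105 in Col291 and 99.7 in Col286, the lines without the allele. It stood at 53.4 CPM in Col290, 55.1 in Col313, 47.9 in Col287 and 52.6 in Col312, the lines with it. All 4 lines with the allele lay below all 3 without, and the 8 cultures with it (47.2 to 61.8 CPM) also lay below the 6 without (92.5 to 112 CPM). The means were 103 ± 3.1 CPM (SD, n = 3 lines) and 52.2 ± 3.1 CPM (SD, n = 4 lines), so that 50.6% of the level was left.

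The log2 difference for Trp53 was -0.98 (SE 0.07), a ratio of 0.506 with a 95% interval of 0.454 to 0.564 (edgeR quasi-likelihood test, adjusted p = 0.00368). An exact permutation test over the 35 splits of the 7 lines gave a two-sided p of 0.0286, the smallest this design allows. Without and with the Braf allele the difference stood at -0.95 between AC and PAC and -1.03 between BAC and BPAC, and their difference did not pass the test (unadjusted p = 0.64). The call at an adjusted p of 0.01 was lost when any line except Col287 was left out, with adjusted p of up to 0.0494 and the log2 difference between -1.01 and -0.97 in those 6 fits, and when the duplicate 1 culture of Col313 was left out (adjusted p = 0.0305).

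**Figure D1:**
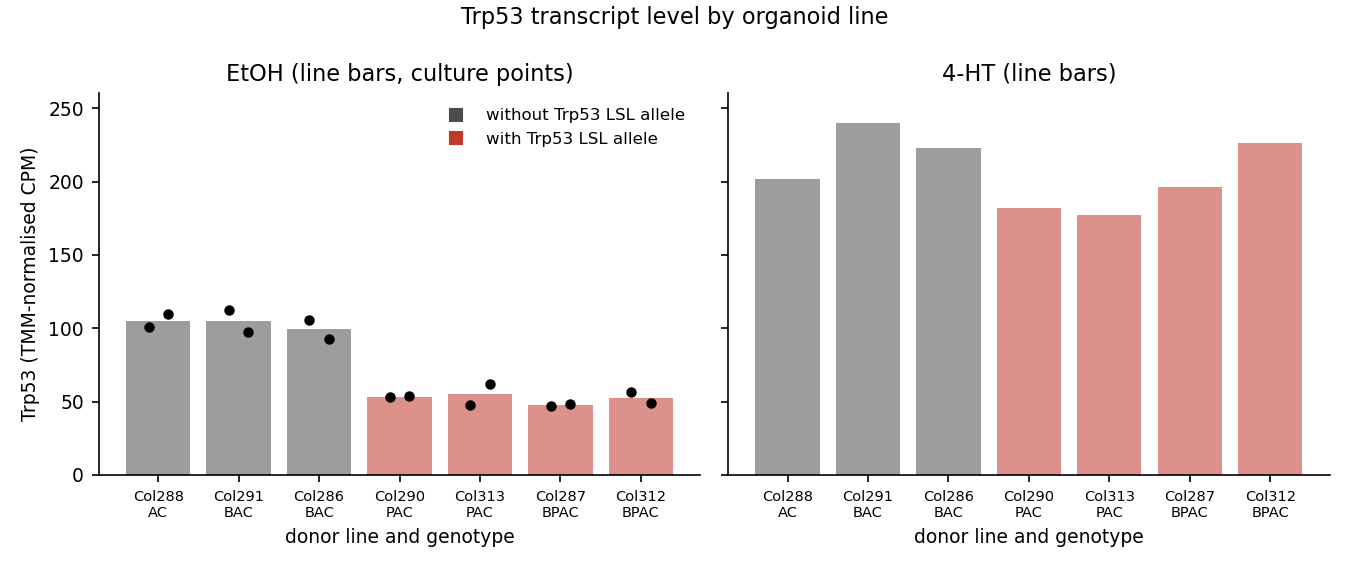
Trp53 level in TMM-normalised CPM by donor line, with EtOH (left; bars are line sums and points the 2 cultures) and with 4-HT (right; line sums). With EtOH the 4 lines with the allele stood at 47.9 to 55.1 CPM and the 3 without at 99.7 to 105 CPM, and with 4-HT both groups overlapped.

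After 4-HT the levels of Trp53 overlapped between the groups. Trp53 stood at 202, 240 and 223 CPM in Col288, Col291 and Col286, and at 182, 177, 196 and 226 CPM in Col290, Col313, Col287 and Col312. Col312 exceeded Col288 and Col286, and the ratio was 0.882 (95% interval 0.740 to 1.05). Normalised over all line sums, the level was higher with 4-HT than with EtOH by a log2 of 0.72, 1.02 and 0.98 in the lines without the allele and by 1.55, 1.48, 1.85 and 1.90 in the lines with it. This increase was larger in every line with the allele than in every line without it (exact permutation test on the 7 increases, two-sided p = 0.0286, the smallest possible). The allele by treatment term of the fit across all genes was 0.79 on the log2 scale (unadjusted p = 0.000317, adjusted p = 1.00), and with cultures as units and the culture as replicate block it was 0.77 (adjusted p = 0.0717), so it did not pass the adjusted threshold in either form. Without the 2 PAC duplicate 1 samples the ratio with 4-HT was 0.853 (95% interval 0.690 to 1.05), the term was 0.74, and the increases were 0.75 to 1.00 without and 1.40 to 1.91 with the allele (exact permutation test, two-sided p = 0.0286). Over all genes the term passed for 0 in edgeR, with 115 at an unadjusted p under 0.05 (0.851%).

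Across the transcriptome only 2 of 13519 genes (0.0148%) passed the adjusted p of 0.01 in edgeR, with Trp53 lower (1 gene, 0.0074%) and Scn2b higher (1 gene, 0.0074%). At an adjusted p of 0.05 Pitx1 and Hs3st2 joined them (4 genes, 0.0296%), and 348 genes had an unadjusted p under 0.05 (2.57%), 228 of them higher (1.69%) and 120 lower (0.888%). The lines with the allele lay wholly above those without it for 254 genes (1.88%) and wholly below for 191 (1.41%). The median log2 difference over all genes was 0.0002. With the 14 cultures as units, 6 genes passed both with and without the duplicate number as replicate block (Trp53, Scn2b, Pitx1, Neto1, Hs3st2 and Arhgap44). These fits treat the 2 cultures of a line as independent although they share a donor. With the line as a random effect, limma-voom called 4 genes without that replicate block (Trp53, Hs3st2, Scn2b and B3gat1) and 2 with it, Trp53 and Hs3st2. On the line sums limma-voom called Trp53 alone, whereas DESeq2 called 18 genes (0.133%). The 3 lower ones were Trp53, Gnai1 and Cxcl5, and the 15 higher ones included Scn2b, Pitx1, Neto1, Hs3st2, Arhgap44, Hsf2bp, H2-Q10, Acaa1b, B3gat1, B4galnt2, Dpp4, Gm8989, Sis and Zfp423. On counts simulated for this design, with the spread as edgeR estimated it, DESeq2 made 21 false calls and edgeR 2. DESeq2 also recovered more of the changed genes, 81% against 65% at 2-fold and 100% against 94% at 4-fold. Below, the threshold refers to edgeR on line sums unless another fit is named.

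**Figure D2:**
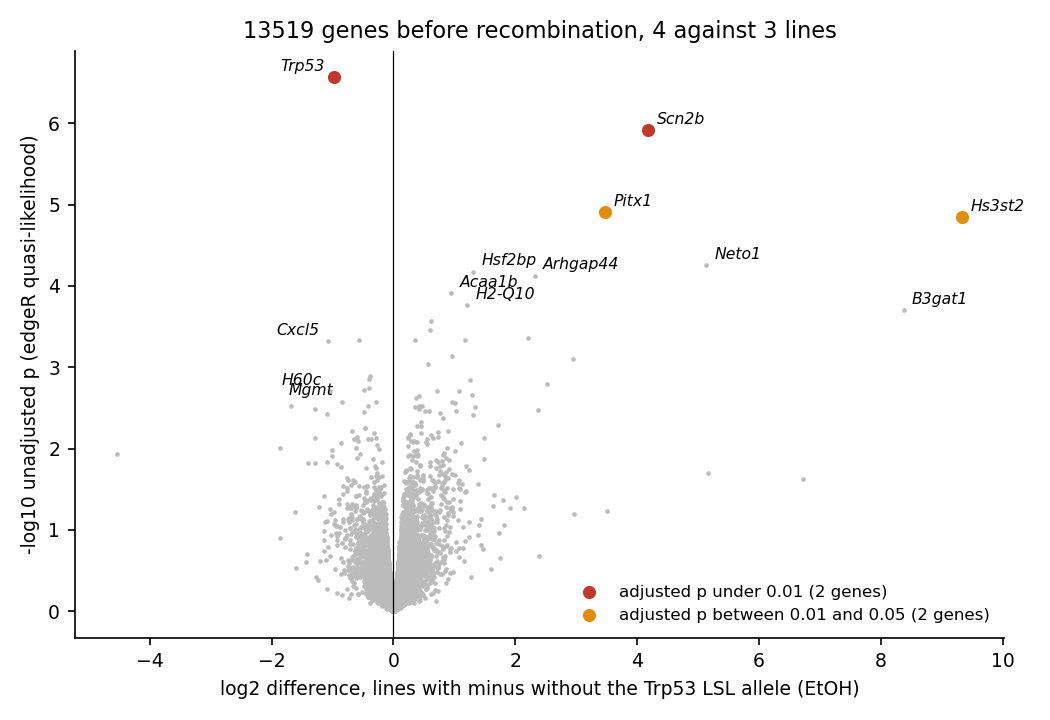
Log2 difference between lines with and without the allele (x axis) against the negative log10 of the unadjusted p (y axis) for the 13519 genes with EtOH. Trp53 (-0.98) and Scn2b (4.18) passed an adjusted p of 0.01, and Pitx1 and Hs3st2 lay between 0.01 and 0.05.

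Scn2b, on the plus strand at chr9:45117782-45130070 (GRCm38), encodes a beta subunit of voltage-gated sodium channels. It stood at 1.16, 0.732 and 0.619 CPM in Col288, Col291 and Col286, and at 9.35, 17.85, 20.7 and 12.99 CPM in Col290, Col313, Col287 and Col312. Neither the lines nor the cultures overlapped, with 10 to 34 counts per culture without and 145 to 728 counts per culture with the allele. The log2 difference was 4.18 (SE 0.35, edgeR adjusted p = 0.00825). In Col290 and Col313 duplicate 1 was higher than duplicate 2, at 11.4 against 6.56 CPM and 26.9 against 9.002 CPM, which is a spread within the allele carriers but far from the other lines.

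The call for Scn2b at 0.01 was less steady than its size. It was lost when any line except Col290 was left out, when any of 6 cultures was left out (Col290, Col313 and Col287 duplicate 1, and Col288, Col313 and Col291 duplicate 2), in the limma-voom fits on line sums (adjusted p = 0.217) and with the replicate block (adjusted p = 0.0412), with the Braf allele as a covariate (adjusted p = 0.0167), with either duplicate alone, in the BAC and BPAC lines alone, between AC and PAC in a fit of the 4 genotypes, and with thinned counts (adjusted p = 0.0167), while the log2 difference stayed between 3.55 and 4.63 in all 38 alternatives. With line sex as a covariate the adjusted p was 0.0579. With 4-HT Scn2b stood at 5.32, 1.19 and 1.42 CPM without and at 10.1, 9.62, 7.93 and 6.72 CPM with the allele, a log2 difference of 1.71 (unadjusted p = 0.0133). Normalised over all line sums, its level went up in each of the 3 lines without and down in each of the 4 with the allele, although Col290 stood slightly higher with 4-HT when each treatment was normalised alone. The allele by treatment term was -2.22 (unadjusted p = 0.000577, adjusted p = 1.00). Without the 2 PAC duplicate 1 samples the difference with 4-HT was 1.63 and the term -2.29.

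The 9 genes that ranked next on the higher side did not pass the 0.01 threshold in edgeR on line sums, although all 9 did in DESeq2, and they are given as values. Pitx1, a homeodomain transcription factor known from hindlimb and pituitary development, stood at 0.674, 0.375 and 0.790 CPM without and at 4.33, 7.70, 10.03 and 5.09 CPM with the allele (log2 difference 3.47, SE 0.39, adjusted p = 0.0477). Hs3st2, which encodes a heparan sulfate sulfotransferase, had 0 counts in all 6 cultures without the allele and 318 counts over the 8 with it. Against a floor of 3 counts over the group this is at least 79.7-fold higher. In CPM, Hs3st2 stood at 0.920, 1.69, 2.235 and 1.475 in Col290, Col313, Col287 and Col312 (adjusted p = 0.0477).

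Neto1, an auxiliary subunit of glutamate receptors, was at 0.173, 0 and 0.0641 CPM without and at 1.61, 3.35, 3.94 and 2.43 CPM with the allele (log2 difference 5.14, adjusted p = 0.144). B3gat1, a glucuronosyltransferase, had 0 counts without and 165 counts with the allele, at least 41.4-fold higher against the same floor. For Scn2b, Pitx1, Hs3st2 and Neto1 Col290 was the lowest of the 4 carrier lines in both duplicates, and the order of the other 3 lines differed between duplicates. These genes were low in the lines without the allele, and none of them is a marker of the colon epithelium lists used here.

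The other genes of this rank were Hsf2bp, a factor of meiotic recombination (log2 difference 1.31), Arhgap44, a GTPase-activating protein (2.32), Acaa1b, a peroxisomal thiolase (0.95), H2-Q10, a non-classical MHC class I gene (1.22), and B4galnt2, the colonic glycosyltransferase of the Sd(a) antigen (0.61). Their adjusted p values lay between 0.144 and 0.332. H2-Q10 stood at 21.5, 27.5 and 33.7 CPM without and at 46.7, 75.85, 66.4 and 67.2 CPM with the allele. Its cultures overlapped, at 16.9 to 38.9 CPM without and 31.8 to 116 CPM with the allele. H2-Q10 belongs to a family of similar genes, so its reads may be shared with relatives. Of the 10 highest ranked genes, 8 had an entry in the RefSeq promoter table, and 0 of the 8 held the p53 decamer, beside 2 of 8 among the 10 lower genes, 9 of 33 p53 targets (27.3%) and 7.2% of all tested genes with an entry. Beside a share of 7.2% nothing was read from a 0 among 8 genes.

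**Figure D3:**
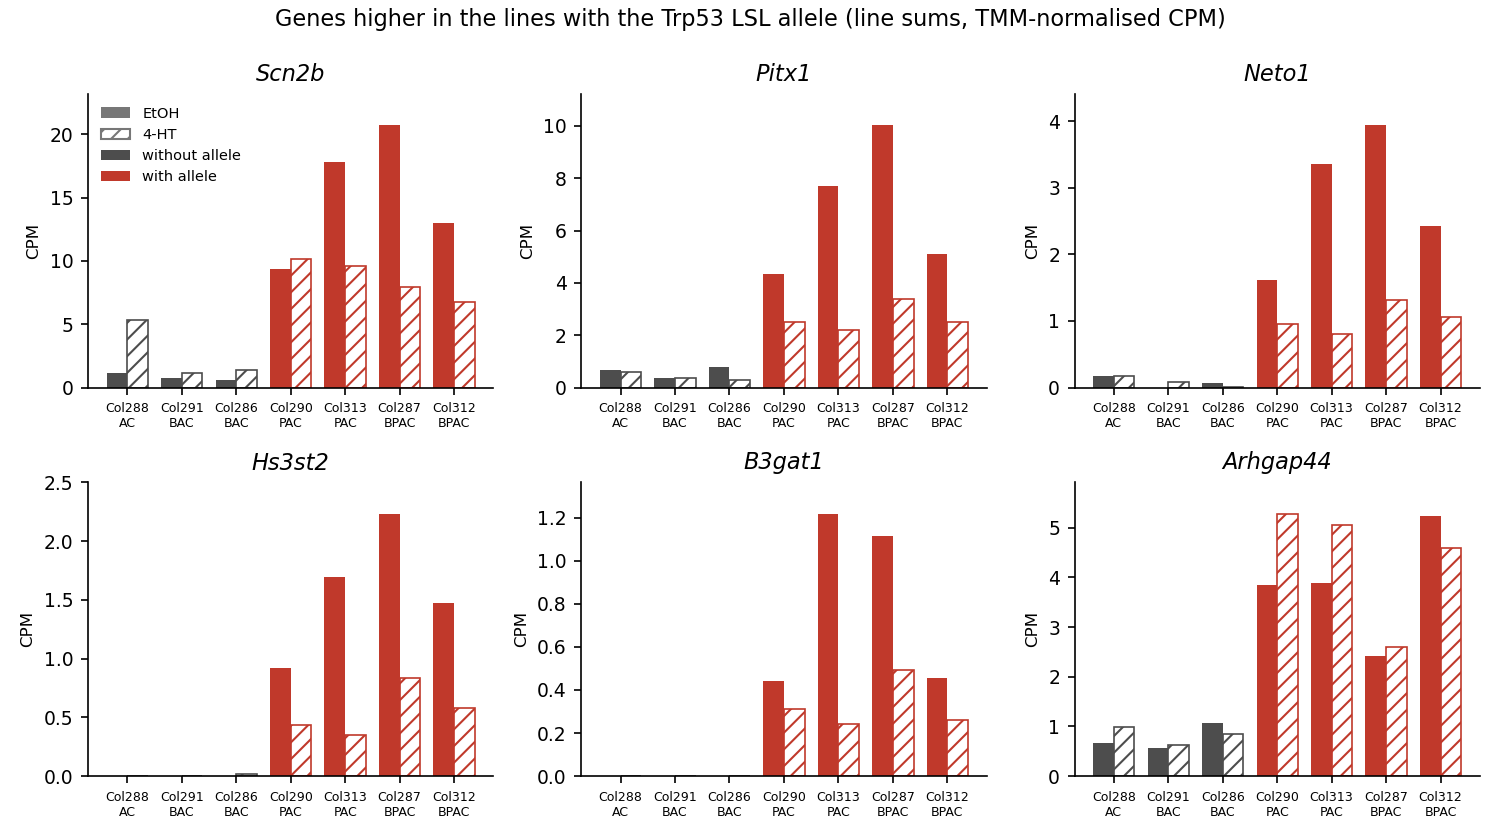
Level in TMM-normalised CPM (y axis, linear) of 6 genes by donor line with EtOH (filled) and 4-HT (hatched), grey for lines without and red for lines with the allele. With EtOH every carrier line stood above every other line, and with 4-HT the separation was kept at lower levels for Pitx1, Neto1, Hs3st2 and B3gat1 and at similar levels for Arhgap44.

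In the 4-HT samples of the same lines all 10 of these genes differed in the same direction, and the groups did not overlap for 7 (against 1.04% of all genes higher without overlap with 4-HT, and 1.83% in either direction). The log2 difference with 4-HT was 2.70 for Pitx1 (unadjusted p = 4.05e-05), 3.51 for Neto1, and 2.41 for Arhgap44 (unadjusted p = 7.63e-05). No gene passed the adjusted threshold with 4-HT (0 of 13519 in edgeR, against 107 at an unadjusted p under 0.05, 0.791%). Without the 2 PAC duplicate 1 samples the values were 2.54 for Pitx1, 3.33 for Neto1 and 2.67 for Arhgap44, all 10 genes kept their direction, and the groups did not overlap for 6, Hsf2bp then overlapping (1.15% of all genes higher without overlap). The EtOH and 4-HT samples share their donor lines, so the 4-HT values repeat the lines and not the donors.

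On the lower side 9 genes ranked after Trp53, and none passed the threshold in edgeR (adjusted p of 0.381 to 0.968), while DESeq2 called Gnai1 (adjusted p = 0.00349) and Cxcl5 (adjusted p = 0.00435). Gnai1, an inhibitory G protein alpha subunit, stood at 14.3, 17.3 and 17.1 CPM without and 10.6, 11.5, 11.45 and 10.2 CPM with the allele (log2 difference -0.57). Cxcl5, a neutrophil-attracting chemokine, was at 2.60, 3.21 and 3.67 CPM against 1.65, 1.68, 1.39 and 1.27 CPM (-1.08). Mgmt, the enzyme that repairs alkylated guanine, was at 6.74, 6.87 and 6.24 CPM against 3.64, 3.26, 2.72 and 5.05 CPM (-0.85).

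The remaining 6 lower genes were H60c, a ligand of an activating lymphocyte receptor (-1.04), Khdrbs3, an RNA-binding protein (-0.48), Traip, a ubiquitin ligase (-0.41), Abcc4, an efflux transporter (-0.40), Chst4, a carbohydrate sulfotransferase (-0.39), and Fam174b (-0.29). With 4-HT the log2 differences of all 10 lower genes kept their sign, but the groups did not overlap only for Mgmt (-0.48, unadjusted p = 0.00638, and -0.51 without the 2 PAC duplicate 1 samples). The share of all genes wholly lower with 4-HT was 0.784%.

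The p53 target genes were next read, since their levels report on p53 activity. Of 45 listed targets 43 were measured, and 0 passed the threshold. At an unadjusted p under 0.05, 3 were lower and 0 higher, against 0.888% and 1.69% of all genes. The lines with the allele lay wholly below the others for 2 targets and wholly above for 0, 4.65% without overlap beside 3.29% of all genes. In all, 29 had a log2 difference below 0 and 14 above, with a median of -0.06 beside 0.0002 over all genes. The median was -0.03 without the duplicate 1 culture of Col287, -0.10 without the duplicate 2 culture of Col286, -0.09 without line Col312, -0.01 between BAC and BPAC alone and -0.14 between AC and PAC. The summed level of the list was 4479 to 4709 CPM without and 4047 to 4492 CPM with the allele.

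Cdkn1a, the cell cycle inhibitor p21 and the target whose upstream sequence is shown above, stood at 364.5, 437 and 557 CPM without and at 362.5, 544, 701 and 439 CPM with the allele. The groups overlapped fully and the log2 difference was 0.18, with a 95% interval of -0.34 to 0.70. Mdm2, the feedback inhibitor of p53, stood at 65.5, 65.5 and 58.0 CPM without and at 54.45, 53.6, 53.4 and 61.4 CPM with the allele (-0.18, interval -0.36 to 0.00, unadjusted p = 0.054). Its lines overlapped through Col312, and a p of this size does not show that the groups were alike.

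Among the apoptosis genes, Bax was at -0.30 (interval -0.72 to 0.11), Bbc3 at -0.17, Pmaip1 at 0.15 and Perp at 0.03. The 3 targets with an unadjusted p under 0.05 were Eda2r, a member of the TNF receptor family, Gdf15, a stress cytokine, and Ccng1, cyclin G. Eda2r stood at 9.69, 8.71 and 5.64 CPM without and at 4.08, 1.44, 1.39 and 5.19 CPM with the allele (log2 difference -1.41, SE 0.46, unadjusted p = 0.0149, adjusted p = 1.00). In each of the 7 lines duplicate 2 was higher than duplicate 1, and within a duplicate the groups did not overlap. Duplicate 1 cultures stood at 3.40 to 5.57 CPM without and at 0.296 to 3.00 CPM with the allele, and duplicate 2 cultures at 8.54 to 14.1 CPM without and at 1.62 to 7.12 CPM with it.

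Eda2r is X-linked, and its lowest lines, Col313 and Col287, included one line with and another without Xist. With 4-HT it stood at 19.8, 18.4 and 15.4 CPM without and at 7.16, 7.77, 8.76 and 10.6 CPM with the allele (-1.06, unadjusted p = 0.000217, and -0.81 without the 2 PAC duplicate 1 samples). Gdf15 was at -0.24 (unadjusted p = 0.0222) and Ccng1 at -0.39 (unadjusted p = 0.0415). With any 1 EtOH culture left out, Gdf15 ran from -0.31 to -0.135 and Ccng1 from -0.51 to -0.28. The count of 3 lower targets became 1 without line Col288, 9 without line Col312, 0 without the duplicate 1 culture of Col290 and 6 without the duplicate 2 culture of Col312. It was 5 with duplicate 1 alone and 0 between BAC and BPAC, both in these lines alone and in the fit of the 4 genotypes. In the fits of 14 cultures it was 7 with the replicate block, 7 with the line as random effect, and 8 with the line as random effect and the replicate block.

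**Figure D4:**
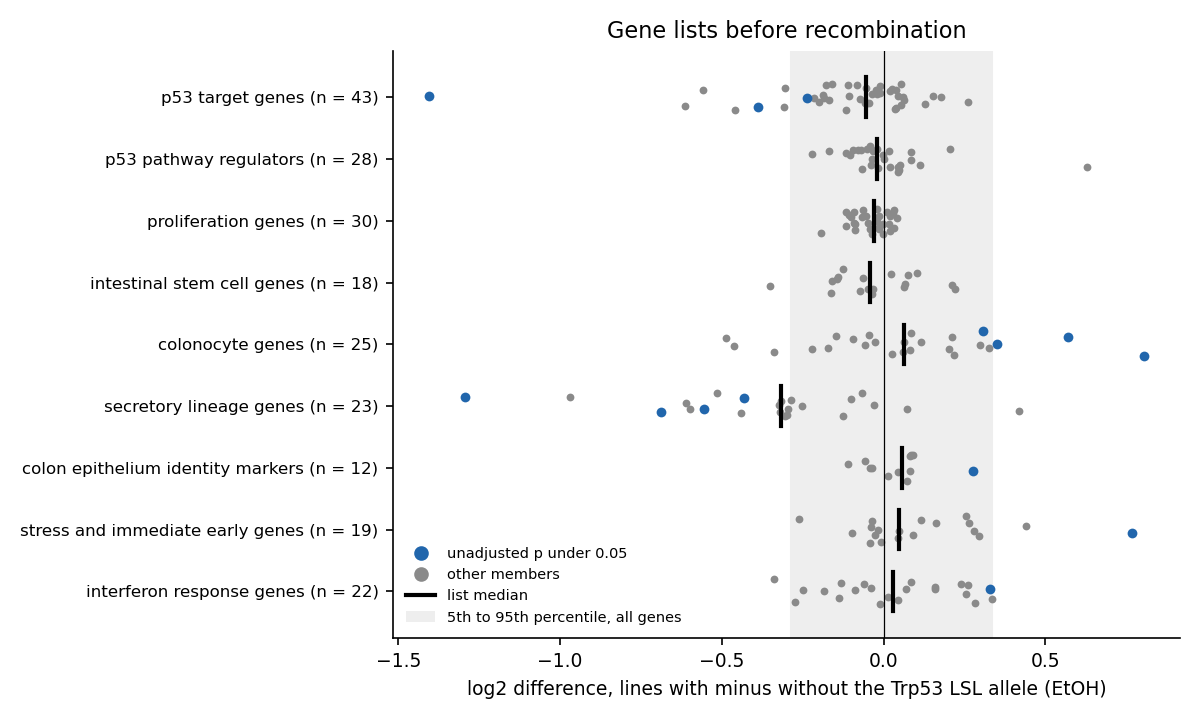
Log2 difference with EtOH (x axis) of each measured member of 9 gene lists (rows), with the list median as a black bar, members at an unadjusted p under 0.05 in blue, and the 5th to 95th percentile of all genes (-0.29 to 0.34) shaded. The p53 targets had a median of -0.06 and the secretory lineage genes of -0.32.

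Of 31 genes that regulate p53 or relay signals to it, 28 were measured. None had an unadjusted p under 0.05 (2.57% of all genes), none was without overlap (3.29% of all genes), and the median was -0.02. Beside such shares nothing was read from a 0 among 28 genes. Mdm4, the partner of MDM2, was at 0.05, the kinases Atm, Atr, Chek1 and Chek2 were at -0.07, -0.08, -0.22 and -0.17, and the phosphatase Ppm1d was at 0.00. Cdkn2a, the locus of the MDM2 inhibitor ARF, was at 0.63 with an interval of -0.96 to 2.22, from a level near 1 CPM.

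The 30 proliferation genes were all measured and none had an unadjusted p under 0.05, beside 2.57% of all genes (median -0.03, range -0.19 to 0.04). Top2a, a DNA topoisomerase of dividing cells, stood at 150.5, 140.5 and 128 CPM without and at 164, 139, 126 and 144 CPM with the allele. Of the stem cell list 18 of 20 were measured, with 0 at an unadjusted p under 0.05 and a median of -0.04. Beside a share of 2.57% over all genes nothing was read from a 0 in lists of this size. Lgr5, the receptor that marks crypt base stem cells, was at 0.07 with an interval of -0.49 to 0.62.

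No gene of the differentiation lists passed the threshold in edgeR, while DESeq2 called the colonocyte genes Dpp4 (adjusted p = 0.0017) and Sis (adjusted p = 0.00957). Of 23 measured secretory lineage genes, 21 were below 0, and 4 were lower at an unadjusted p under 0.05 (17.4% of the list, against 0.888% of all genes lower), with a median of -0.32. Reg4, of deep crypt secretory and enteroendocrine cells, stood at 36.7, 68.8 and 66.05 CPM without and at 14.4, 32.7, 33.2 and 13.1 CPM with the allele (-1.29, unadjusted p = 0.00747). Spink4, a goblet cell peptide, was at -0.69 (unadjusted p = 0.00601), Neurog3, the enteroendocrine progenitor factor, at -0.56 (unadjusted p = 0.0115) and Tff3, a goblet cell trefoil peptide, at -0.43 (unadjusted p = 0.0291). The lines did not overlap for Reg4, Spink4 and Neurog3, but overlapped for Tff3. Over the list 4 genes were wholly lower and 0 wholly higher, 17.4% without overlap beside 3.29% of all genes.

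The determinants Atoh1 and Spdef were at -0.03 and -0.10, and Muc2, the main goblet cell mucin, was at -0.25 with an interval of -0.62 to 0.12. With 4-HT the median of the secretory list was 0.02 (-0.10 without the 2 PAC duplicate 1 samples), and the lowest unadjusted p of Reg4, Spink4, Neurog3 and Tff3 was 0.717, for Tff3 (0.605 without those samples, for Neurog3). The summed secretory level ranged from 3794 to 5641 CPM without and from 2894 to 4831 CPM with the allele. The count of 4 became 8 without line Col287, 7 without the duplicate 2 culture of Col287, 7 in the fits of 14 cultures with or without the replicate block, 2 with duplicate 2 alone, 1 in the BAC and BPAC lines alone, and, in the fit of the 4 genotypes, 1 between AC and PAC and 3 between BAC and BPAC. The median was -0.15 without line Col286 and -0.51 without line Col287.

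Of the 25 colonocyte genes, all measured, 4 were higher at an unadjusted p under 0.05 (against 1.69% of all genes) and 0 lower. Wholly higher were 3 and wholly lower 0, 12% without overlap beside 3.29% of all genes. In all, 15 of the 25 were above 0 and 10 below, down to -0.49, with a median of 0.06 that ran from 0.0008 without the duplicate 1 culture of Col287 to 0.15 without line Col286. The summed level was 33370 to 36090 CPM without and 34670 to 38570 CPM with the allele, and these ranges overlapped. The 4 higher genes were the brush border enzymes Sis (sucrase-isomaltase, 0.57, unadjusted p = 0.000923), Dpp4 (0.35, unadjusted p = 0.000467) and Anpep (0.81, unadjusted p = 0.0142), and the adhesion protein Ceacam20 (0.31, unadjusted p = 0.0471). Sis stood at 45.8, 53.2 and 55.9 CPM without and at 70.0, 83.25, 86.7 and 66.6 CPM with the allele. The cultures of Sis overlapped, at 36.9 to 60.3 CPM without and 31.9 to 136 CPM with the allele, since Col313 was at 135.9 CPM in duplicate 1 and 31.9 CPM in duplicate 2, and Col312 at 33.1 and 96.1 CPM. The log2 difference of Sis was 0.31 without the duplicate 1 culture of Col313, that of Anpep was 0.46 and that of Dpp4 0.22 without the duplicate 2 culture of Col312. The count of 4 became 2 without line Col291 or without the duplicate 1 culture of Col313, 1 without the duplicate 2 culture of Col312, 6 without line Col290, 0 with duplicate 1 alone, 2 between AC and PAC, and 1 with the line as random effect and the replicate block.

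Among the 12 identity markers Cdx2, an intestinal transcription factor, was at 0.28 (unadjusted p = 0.0455), and the median was 0.06. Of 19 measured stress and immediate early genes, only Trib3, a pseudokinase of the integrated stress response, had an unadjusted p under 0.05, at 9.78, 8.12 and 11.2 CPM without and 13.7, 21.0, 18.4 and 12.96 CPM with the allele (0.77, unadjusted p = 0.00366), a share of 5.26% beside 2.57% of all genes. Of 22 interferon response genes it was only Oasl1 (0.33, unadjusted p = 0.00817), 4.55% of the list. In the interferon list 1 gene was wholly higher and 2 wholly lower, 13.6% without overlap beside 3.29% of all genes. Trib3 and Oasl1 did not pass the adjusted threshold.

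The region around Trp53 was examined because a targeted allele is inherited with its flanking chromosome. With distances taken between the 5′ ends of genes, 124 other genes were measured within 5 Mb on either side of Trp53, and 0 passed the threshold in edgeR on line sums. Arhgap44, which is among them, passed in DESeq2 and in both edgeR fits of 14 cultures, which treat cultures of a line as independent. An unadjusted p under 0.05 was found for 5 higher and 5 lower genes, 8.06% of the 124 against 2.57% of all genes, and 7 higher and 2 lower genes were without overlap, 7.26% against 3.29%. Wrap53, which starts next to Trp53 on the opposite strand, was at 17.7, 18.7 and 18.8 CPM without and 19.0, 19.3, 18.95 and 18.7 CPM with the allele (0.04, interval -0.12 to 0.21).

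Kdm6b, a histone demethylase, was at 0.01, Fxr2, an RNA-binding protein, at -0.01 and Mpdu1, of glycan synthesis, at 0.02. Dnah2, an axonemal dynein whose 5′ end lay at -31.2 kb from that of Trp53, was at 0.74 (unadjusted p = 0.0147), and Cd68, a lysosomal macrophage marker, at 0.55 (unadjusted p = 0.0827), both at low levels and with lines that did not overlap. Farther away lay Nlrp1b, an inflammasome sensor, at -1.10 (unadjusted p = 0.00374), Smtnl2 at 1.09 (unadjusted p = 0.0318) and Arhgap44, at -4417 kb, at 2.32 (unadjusted p = 7.48e-05). Nlrp1b belongs to a cluster of similar genes, so its reads may be shared with relatives, which was not tested. The part of flanking chromosome in these values was not tested.

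**Figure D5:**
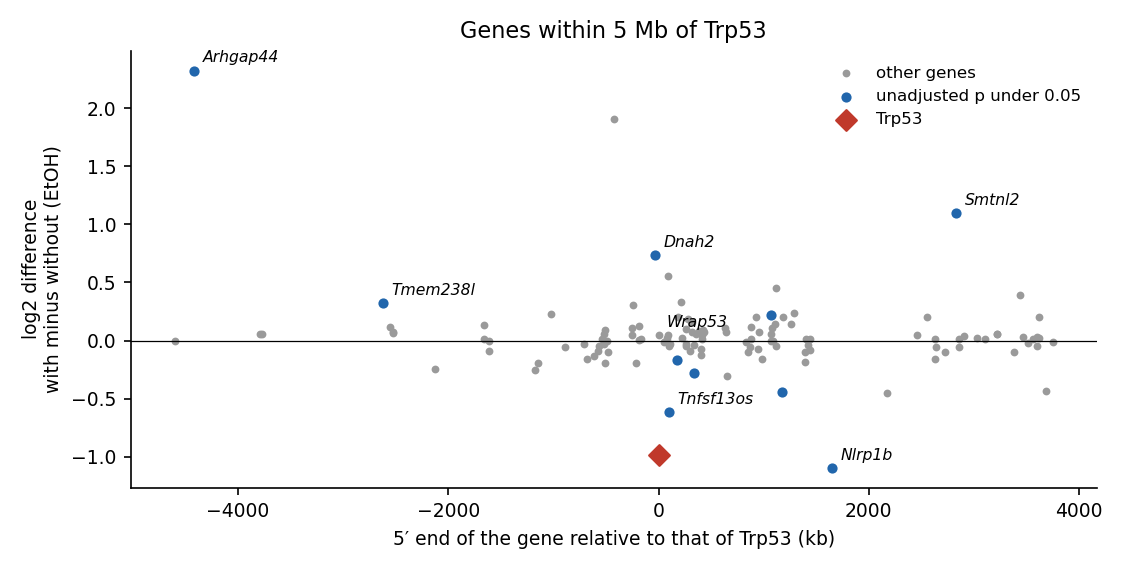
Log2 difference with EtOH (y axis) of 124 genes by the distance of their 5′ end from that of Trp53 in kb (x axis), with Trp53 as a red diamond and genes at an unadjusted p under 0.05 in blue. Of the 3 genes on each side of Trp53 (-0.98), Kdm6b, Wrap53, Fxr2 and Mpdu1 lay near 0 while Dnah2 (0.74) and Cd68 (0.55) lay above it, and Arhgap44 at 2.32 was the highest.

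The other engineered loci did not pass the test. Braf stood at 24.1, 19.2 and 20.4 CPM without and at 25.4, 23.9, 21.6 and 21.5 CPM with the Trp53 allele (0.12, unadjusted p = 0.279), and Apc at 36.0, 33.5 and 29.6 CPM against 37.4, 31.3, 32.1 and 34.9 CPM (0.04, unadjusted p = 0.703). When AC was set against PAC and BAC against BPAC in a fit of the 4 genotypes, 0 genes passed the edgeR threshold in either contrast (315 and 348 at an unadjusted p under 0.05, 2.33% and 2.57%), and 0 differed between the contrasts (260 at an unadjusted p under 0.05, 1.92%). AC had a single line, which was assumed to vary like the others. Scn2b was at 3.55 in the first and 4.63 in the second contrast.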

How the data were processed

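Colon organoids were sequenced on an Illumina instrument by the study. The values that the authors deposited are raw counts of reads for each gene, not normalised. According to the submitters' processing notes, reads were trimmed with Trimmomatic 0.39 and aligned with STAR 2.5.2b to GRCm38. The counting program, its annotation and its strandedness are not given in the sources used here, so reads of overlapping genes on opposite strands may be shared.

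The deposited counts covered 13519 genes, of which 13479 matched a symbol in GENCODE, and no gene was filtered out. The counts of both EtOH cultures of a line were summed, normalised by TMM (factors 0.986 to 1.033) and tested with edgeR 4.0.16 (quasi-likelihood test, R 4.3.3) for the Trp53 LSL allele over 7 lines. Adjusted p values (Benjamini-Hochberg) cover all genes tested, and the threshold was 0.01, the cutoff of the study. CPM are counts scaled by TMM library size, not corrected for length, and log2 values for the permutation tests used a prior count of 2. limma 3.58.1 and DESeq2 1.42.0 served as alternatives. The named genes were Trp53, every gene past the threshold, the 10 genes of smallest p per direction with at least 10 counts per line on average and no overlap between lines, list members at an unadjusted p under 0.05 or among the 3 highest, the 3 genes on each side of Trp53, Braf, Apc and sex-linked genes. Others were chosen after their values were seen. The members and gene lists were chosen with earlier results of these data known.

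The duplicates came from distinct passages. Deviations of duplicate 1 from duplicate 2 correlated in all 21 pairs of lines (r of 0.184 to 0.563), so a replicate block was fitted as an alternative. Each line had a single donor, and the cultures of a line share it. The fits were tested on simulated counts of the same design, where DESeq2 recovered more of the changed genes than edgeR and made more false calls. A total of 20577276 to 29135706 counts per sample limits genes below about 1 CPM. Intervals cover the spread between lines, and the floor of 3 counts covers counting error only. Upstream sequences came from RefSeq (GRCm38.p6).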

Additional observations from a re-analysis of the deposited data

Results flagged for a closer look

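Among the 4 lines with the allele, 1 line stood apart from the other 3 for 9 of the 78 named genes looked at (Dixon's test at 95%, which chance meets in about 1 of 20 groups). The test sets the gap against the range of the 4 lines, so a small difference can count, as for Traip. Col287 was apart for 4 genes: Muc2 at 766.7 CPM (the next line at 604.5), Fcgbp at 673.9 CPM (433.1), Ceacam20 at 94.3 CPM (69.58) and Gpx1 at 524.3 CPM (648.7). For 3 of these the duplicate 2 culture of Col287 alone stood apart, with 479.3 CPM in duplicate 1 and 981.7 CPM in duplicate 2 for Muc2, 390.4 and 886.1 CPM for Fcgbp, and 704.4 and 389 CPM for Gpx1. Col290 was apart for Abcc4 at 70.91 CPM (58.88), Kdm5c at 82.2 CPM (112.3), Ddx3y at 35.24 CPM (5.966) and Kdm5d at 23.82 CPM (3.942), and Col312 for Traip at 10.55 CPM (10.02). Ddx3y and Kdm5d are Y-linked, and of the other 3 lines Col313 and Col312 were those with Xist. The lines without the allele were too few for this test.

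Scn2b moved in opposite directions from EtOH to 4-HT, with a mean log2 change of 1.14 in the 3 lines without the allele and of -0.98 in the 4 carrier lines, which differ by -2.12. With all line sums normalised together, every line of a group moved the same way, Col290 by only -0.11. With each treatment normalised alone, Col290 stood at 9.35 CPM with EtOH and at 10.1 CPM with 4-HT. In the fit across all genes the term did not pass the adjusted threshold, and the per-line difference itself was not tested.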

How the results depend on the processing

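The count of 2 genes past the threshold was 1 with limma-voom, 18 with DESeq2 (15 higher, 3 lower), 1 with the Braf allele as a covariate, 6 with 14 cultures as units, 6 with 14 cultures and the replicate block, 4 with the line as random effect, 2 with that fit and the replicate block, 1 and 0 with duplicate 1 or 2 alone, 0 with BAC and BPAC lines alone, 0 between AC and PAC, 1 with thinned counts, 0 with line sex as a covariate, and 4 at an adjusted p of 0.05 and 4 at 0.1. Leaving out a line or a culture gave 0 to 2 genes. It was 2 with DESeq2 size factors, library size alone, filterByExpr, and genes of X and Y left out. Trp53 was past the threshold in 27 of 38 alternatives and lower in all 38 (log2 of -1.06 to -0.90). It missed the threshold with duplicate 2 alone (-0.90, adjusted p = 0.195), BAC and BPAC alone (-1.03, adjusted p = 0.618), AC and PAC (-0.95, adjusted p = 0.955), line sex as a covariate (-0.99, adjusted p = 0.0312) and 7 of the leave-one-out fits (-1.01 to -0.93, with -1.03 to -0.93 over all 21 such fits). Several of these alternatives have fewer samples or residual degrees of freedom by construction, and otherwise the cause was not tested. The replicate block changed no call for Trp53 (-0.98). The ratio of Trp53 line means stayed between 0.481 and 0.536. Scn2b was past the threshold in 17 of 38 alternatives, and neither it nor Trp53 changed direction. Of the 78 genes picked by the naming rule, 52 kept their sign in these alternatives and 26, with log2 differences of -0.29 to 0.17, changed it in at least 1, among them Perp, Top2a, Apc, Kdm6b, Wrap53, Fxr2 and Mpdu1. None of the 26 passed the threshold in any. Genes named outside that rule were not recomputed. The allele by treatment term for Trp53 was 0.74 without the 2 PAC duplicate 1 samples with 4-HT, chosen after the data were seen. With 7 lines, an exact permutation test cannot give a p below 0.0286, and differences above 2-fold could also be missed.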
